A study of Mus musculus with 5 samples.

Results

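Beta-catenin, the proteins that mark it for destruction and the Dishevelled proteins form the cytoplasmic core of canonical Wnt signalling, and 10 genes of this core were examined in the mouse forelimb bud. The genes were Ctnnb1 for beta-catenin itself, Apc, Axin1, Gsk3b and Csnk1a1 of the destruction complex, the F-box genes Btrc and Fbxw11, and Dvl1, Dvl2 and Dvl3. They were chosen by name, and every probe set whose single platform symbol was one of these names was included, which gave 35 of 45037 tested probe sets and 10 of 18193 genes. RNA came from forelimbs of C57Bl/6 E11.5 embryos and was hybridised to single-channel Affymetrix arrays. The arrays were 2 from double mutants with the genotype Sost-/- and Sostdc1-/-, replicates 1 and 2, and 3 from wild type, replicates 1 to 3. Embryos were not pooled, per the series' design text, and the structure of the mutant alleles was not given in the sources used here. Sost encodes sclerostin and Sostdc1 a related secreted protein, both of which bind LRP co-receptors and hold back Wnt signalling.

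In the absence of a Wnt signal, Axin and Apc hold beta-catenin beside the kinases of the casein kinase 1 and GSK3 families. These kinases phosphorylate its N-terminus, which the F-box proteins encoded by Btrc and Fbxw11 recognise for ubiquitination and decay in the proteasome. When a Wnt ligand joins a Frizzled receptor and an LRP co-receptor, Dishevelled polymerises at the membrane and draws Axin away, so that beta-catenin builds up and enters the nucleus. Much of this control acts on protein, which these arrays did not measure. In the limb bud the pathway acts in the apical ectodermal ridge and in the mesenchyme beneath it.

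Counted were 7 entries, of 6 of the 10 genes, from the RefSeq promoter table (GRCm38.p6). Any entries of Apc and Csnk1a1 were left out before counting, so whether the table holds them is not stated here. The windows of the whole table given below were not filtered in this way. The 250 bases before the start are printed for Ctnnb1, the gene the pathway turns on, and for Dvl1, the gene whose probe sets were all above wild type in both mutant arrays. Both windows are on the plus strand, at chr9:120933150-120933399 for the first Ctnnb1 entry and at chr4:155847152-155847401 for Dvl1. Capitals mark the GC box GGGCGG on either strand, a motif bound by Sp family factors, with overlapping matches counted.
Ctnnb1: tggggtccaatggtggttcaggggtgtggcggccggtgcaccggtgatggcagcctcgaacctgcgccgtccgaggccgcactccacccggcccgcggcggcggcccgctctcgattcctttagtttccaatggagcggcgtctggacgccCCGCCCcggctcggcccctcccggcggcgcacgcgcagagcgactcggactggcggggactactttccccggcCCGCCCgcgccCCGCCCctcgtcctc
Dvl1: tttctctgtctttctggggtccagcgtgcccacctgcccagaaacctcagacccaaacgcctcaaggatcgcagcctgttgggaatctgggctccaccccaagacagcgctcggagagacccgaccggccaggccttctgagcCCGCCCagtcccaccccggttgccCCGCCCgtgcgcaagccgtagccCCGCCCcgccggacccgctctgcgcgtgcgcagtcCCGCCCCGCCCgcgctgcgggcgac
The GC box stood 3 times in the Ctnnb1 window and 5 times in the Dvl1 window, and 5 of the 7 entries held at least 1. Over all 32851 windows of this length, 32.7% held the motif. The TCF/LEF letters CTTTGAT and the GLI letters GACCACCCA were in 0 of the 7 entries on either strand, and in 3.21% and 0.225% of all windows. That says only that these letters are not in these windows.

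Several facts of the arrays touch every result. Median intensities lay between 39.4 and 44.4. Sost on 1450179_at stood at 4.16 and 4.43 in double mutants, against 6.75, 6.19 and 6.47 in wild type (log2 intensity, adjusted p = 0.00910), while 1421245_at differed by −0.73 (adjusted p = 0.237). Sostdc1 on 1460250_at stood at 6.28 and 7.35 in double mutants, against 9.42, 8.94 and 9.15 in wild type (adjusted p = 0.0233), and its probe set 1449340_at differed by 0.045 (adjusted p = 0.775). Xist on 1436936_s_at and the Y-linked Eif2s3y on 1417210_at were both high in each double mutant array, at 11.75 to 12.37 and at 8.36, whereas each wild type array was high for 1 of them only. Xist is a female transcript and Eif2s3y a male one, so whether each mutant array held RNA of 1 embryo, as the design text says, is uncertain, and with it what n counts. The bacterial spike-in Dap, which is added to RNA before labelling, stood at 6.90 and 7.28 in double mutants, against 3.23 to 3.36 in wild type. The 3' minus 5' log2 difference of the Gapdh control probe sets was 0.27 and 0.16 in double mutants and −0.14, −0.098 and −0.060 in wild type, without overlap. The same measure overlapped for Actb, at 0.56 to 0.65 in double mutants and 0.20 to 0.68 in wild type. It also overlapped for pyruvate carboxylase, at 1.77 to 2.31 in double mutants and 1.38 to 1.84 in wild type, and for the transferrin receptor, at 1.32 to 1.75 in double mutants and 1.62 to 2.09 in wild type. The 5' log2 signal of pyruvate carboxylase did not overlap, at 5.22 and 5.56 in double mutants and 5.71 to 6.03 in wild type. The transferrin receptor was dim in double mutants. Its 3' signal was 4.66 and 5.16 there, against 6.80 to 8.06 in wild type, and its 5' signal 3.33 and 3.41, against 4.71 to 6.44. Its 3' minus 5' difference is thus poorly resolved in double mutants. Preparation and genotype cannot be told apart with these arrays.

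A probe set was called where limma gave an adjusted p under 0.05 over all 45037 probe sets. All 6 limb mesenchyme markers examined, among them Prrx1 and Tbx5, were above the median level, and limma called 0 of 6 between the genotypes, with 1, Twist1, at an unadjusted p under 0.05. Their summed intensity was 11441 to 12139 in double mutants and 11192 to 11355 in wild type. Surface ectoderm markers were higher, with 4 of 6 called (Epcam, Esrp1, Trp63 and Cdh1) and sums of 3592 to 3965 in double mutants and 2299 to 2393 in wild type. Summed intensity for endothelium was 999.8 to 1153 in double mutants and 1277 to 1380 in wild type, with 1 of 5 called, Pecam1, which was lower. Cdh5, Kdr, Tek and Egfl7 differed by −0.062, −0.028, −0.059 and 0.10 on the log2 scale. Muscle progenitor sums were 1156 to 1318 in double mutants and 1471 to 1609 in wild type, with Myod1 the 1 of 5 called, also lower. Pax3, Myf5, Lbx1 and Met differed by 0.79, 0.054, −0.31 and −0.030. Erythroid sums were 44209 to 49423 in double mutants and 50097 to 53558 in wild type, with Hba-x and Alas2 the 2 of 5 called, both lower. Hbb-y, Hbb-bh1 and Hba-a1 differed by −0.013, −0.022 and 0.17. Macrophage and leukocyte sums were 691.5 to 822.4 in double mutants and 902.2 to 988.3 in wild type. Of these markers 0 of 5 were called, with 1, Csf1r (−0.63), at an unadjusted p under 0.05. Ptprc, Cx3cr1, Tyrobp and Fcer1g differed by −0.21, 0.15, −0.080 and −0.037. The groups overlapped for neural crest, at 623.3 to 844.7 in double mutants and 646.0 to 792.3 in wild type, and for hindlimb markers, at 201.1 to 203.0 in double mutants and 194.2 to 219.2 in wild type, with 0 called and 0 at an unadjusted p under 0.05 by limma. No marker was at 0, and Hba-a1, Foxd3 and Pitx1 were the dimmest, between 3.46 and 5.09 in log2 intensity. The part of these cell types in the results below was not tested, and in a whole limb bud fewer cells of a type and less RNA per cell cannot be told apart.

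Member probe sets were called in both directions, with differences of several-fold on some of them, and all but 1 of the calls lay on probe sets other than the brightest of their gene. Of the 35 member probe sets 13 were called, 6 higher and 7 lower in double mutants, against 18.2% of all probe sets (8.70% higher and 9.52% lower). The members were brighter than most, with 30 of 35 above the median level. In the fit over probe sets above that level 17 of 30 were called, against 7573 of 22518. Taking each gene by its brightest probe set, 1 of 10 was called, Btrc, which was lower, against 14.7% of all genes (6.56% higher and 8.14% lower), a share near the background. Of the 25 other probe sets 12 were called, 6 higher and 6 lower, against 23.6% of all such probe sets (8.66% higher and 15.0% lower). The groups did not overlap in 25 of 35 member probe sets (11 above wild type and 14 below), against 45.2% of all probe sets (22.1% above and 23.0% below). The median difference of the 35 was −0.082 and the median size of a difference 0.56, beside −0.0098 and 0.18 over all probe sets.

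The number of calls moved with single arrays. Without double mutant replicate 1, and likewise without wild type replicate 2, limma called 0 of the 35 and 0 of all 45037 probe sets, with 18 of the 35 at an unadjusted p under 0.05 in each case and adjusted p for the 13 from 0.0511 to 0.116 and from 0.0629 to 0.145. Without double mutant replicate 2 the calls numbered 4, of which 3 were among the 13 (Axin1 1426967_at, Btrc 1425680_a_at and Fbxw11 1438336_at). Without wild type replicate 1 they numbered 5, all among the 13 (Csnk1a1 1437923_at, Ctnnb1 1430533_a_at, Gsk3b 1439949_at, Fbxw11 1425461_at and Fbxw11 1438336_at). Without wild type replicate 3 there were 13, with 11 of the same ones, without Csnk1a1 1430529_at and Gsk3b 1439931_at, and with Apc 1420957_at and Dvl1 1450978_at in addition. Over all probe sets these 3 fits called 3826, 2939 and 5108, against 8206 with all arrays. No probe set among the 13 changed direction in any of these fits. With the Gapdh 3' minus 5' difference as a covariate, which itself separated the genotypes, limma called 0 of 35 and 0 of all probe sets, with 7 of the 35 at an unadjusted p under 0.05. In that fit Ctnnb1 1430533_a_at differed by −2.23 ± 0.87, beside −2.40 ± 0.20 without the covariate, Fbxw11 1438336_at by 2.56 ± 1.01, beside 2.64 ± 0.24, and Fbxw11 1425461_at by −1.83 ± 1.22, beside −3.50 ± 0.36.

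**Figure D1:**
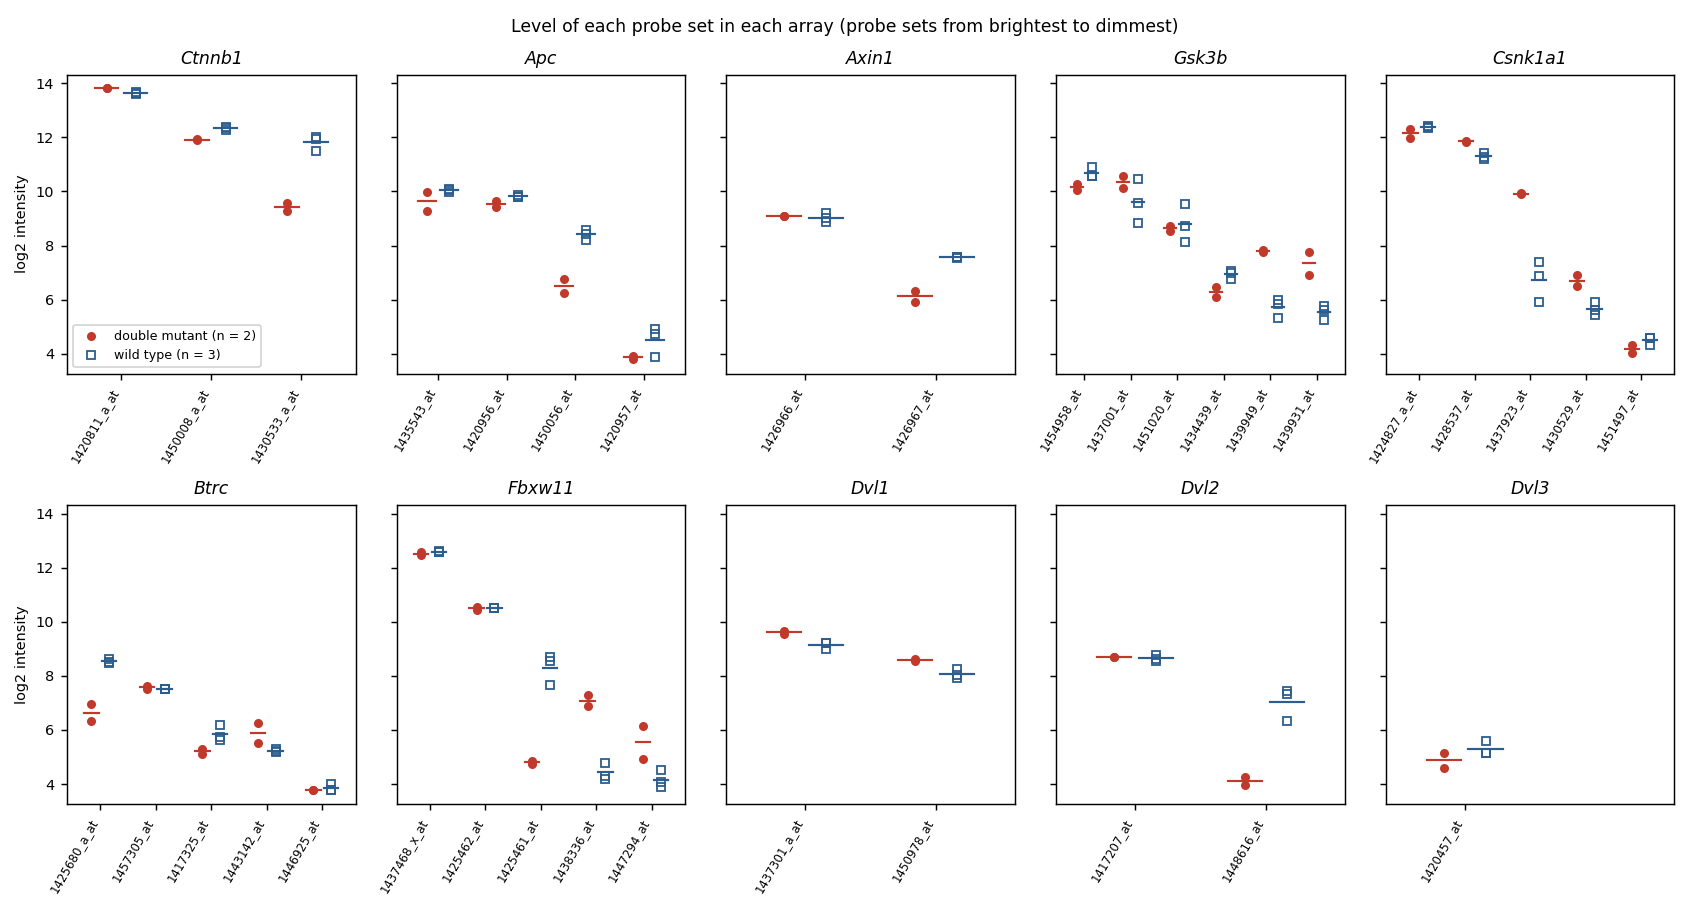
Log2 intensity (vertical axis) of each probe set of the 10 genes, with 1 panel per gene and probe sets from brightest to dimmest. Filled circles are the 2 double mutant arrays, open squares the 3 wild type arrays and short lines the group means. The brightest Ctnnb1 probe set lies at 13.6 to 13.8 in all 5 arrays, while 1430533_a_at lies at 9.27 and 9.56 in double mutants and between 11.48 and 12.002 in wild type.

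Ctnnb1 encodes beta-catenin, which serves both as the transcriptional effector of the pathway and as a link between cadherins and the cytoskeleton. Its 3 probe sets all carry the suffix _a_at, which marks probes shared by alternative transcripts of a gene. On the brightest, 1420811_a_at, the log2 intensity was 13.82 and 13.82 in double mutants and 13.66, 13.65 and 13.61 in wild type. Both mutant arrays lay above all wild type arrays by a small margin, and the difference of 0.18 ± 0.04 (SE, 95% interval 0.058 to 0.30) was not called (adjusted p = 0.0650), though it was with trend and robust moderation (adjusted p = 0.0175) or with 16 added to the intensity (adjusted p = 0.0284). With equal array medians it was 0.088 (adjusted p = 0.513) and with quantile normalization 0.17 (adjusted p = 0.126), and the group medians of all probe sets differed by 0.091. On 1450008_a_at, which the platform annotation ties to the same GenBank record, values were 11.93 and 11.90 in double mutants and 12.37, 12.34 and 12.28 in wild type. This probe set fell by 0.41 ± 0.05 on the log2 scale (adjusted p = 0.0144). The third, 1430533_a_at, stood at 9.56 and 9.27 in double mutants, against 12.002, 11.96 and 11.48 in wild type. It fell by 2.40 ± 0.20 on the log2 scale, a 5.27-fold difference (adjusted p = 0.00845). Leaving out single arrays, the 3 differences ranged from 0.16 to 0.19, from −0.44 to −0.39 and from −2.56 to −2.25.

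Apc encodes the large scaffold that binds beta-catenin and Axin. On 1435543_at it stood at 9.998 and 9.28 in double mutants, against 10.06, 9.97 and 10.08 in wild type. Double mutant replicate 1 lay within the wild type range and replicate 2 below it (difference −0.40 ± 0.23, adjusted p = 0.321, from −0.76 to −0.039 with 1 array left out). On 1420956_at values were 9.65 and 9.44 in double mutants and 9.79, 9.80 and 9.86 in wild type, a difference of −0.28 ± 0.08 that was not called (adjusted p = 0.0965). On 1450056_at they were 6.75 and 6.26 in double mutants and 8.44, 8.59 and 8.22 in wild type. Here the signal fell by 1.91 ± 0.20, the single call among the 4 Apc probe sets (adjusted p = 0.0110), with a range of −2.15 to −1.66 when 1 array was left out. The dim 1420957_at stood at 3.93 and 3.82 in double mutants, against 4.73, 4.92 and 3.88 in wild type, with overlap (adjusted p = 0.302), and was called without wild type replicate 3 (−0.95, adjusted p = 0.0291). All 4 Apc differences were below 0.

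Axin1 encodes the scaffold that nucleates the complex. On 1426966_at it stood at 9.09 and 9.10 in double mutants, against 8.86, 9.03 and 9.19 in wild type, so that the mutant values lay inside the wild type range (difference 0.070 ± 0.11, 95% interval −0.23 to 0.37, adjusted p = 0.702). On 1426967_at, listed under the same GenBank record, it stood at 5.91 and 6.33 in double mutants, against 7.56, 7.56 and 7.57 in wild type. That signal fell by 1.44 ± 0.14 (adjusted p = 0.00937) and ranged from −1.65 to −1.24 with 1 array left out.

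Gsk3b encodes glycogen synthase kinase 3 beta, which phosphorylates beta-catenin after priming. Of its 6 probe sets 2 were called, both higher, and the others were not called. On the brightest, 1454958_at, values were 10.06 and 10.26 in double mutants and 10.59, 10.59 and 10.89 in wild type. The difference of −0.53 ± 0.13 was not called (adjusted p = 0.0670), and was called with equal array medians (adjusted p = 0.0411) and over probe sets above the median level alone (adjusted p = 0.0408). On 1439949_at values were 7.83 and 7.77 in double mutants and 5.99, 5.85 and 5.33 in wild type. This probe set rose by 2.08 ± 0.22 (adjusted p = 0.0114), and between 1.88 and 2.21 with 1 array left out. On 1439931_at they were 7.77 and 6.92 in double mutants and 5.77, 5.25 and 5.63 in wild type, a rise of 1.79 ± 0.32 (adjusted p = 0.0307), between 1.37 and 2.22 with 1 array left out.
The other Gsk3b probe sets were not called. On 1437001_at values were 10.58 and 10.14 in double mutants and 10.45, 9.56 and 8.84 in wild type (0.74 ± 0.52, adjusted p = 0.391). On 1451020_at they were 8.74 and 8.55 in double mutants and 9.54, 8.71 and 8.13 in wild type (−0.15 ± 0.45, adjusted p = 0.847). The wild type arrays were more spread than the mutant arrays on both, and the groups overlapped. On 1434439_at, of the same GenBank record as the brightest, values were 6.48 and 6.11 in double mutants and 6.77, 6.98 and 7.06 in wild type. Its difference of −0.64 ± 0.15 (adjusted p = 0.0610) was called with equal array medians (adjusted p = 0.0205), quantile normalization (adjusted p = 0.0499) and over probe sets above the median level (adjusted p = 0.0354).

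Csnk1a1 encodes casein kinase 1 alpha, the kinase that primes beta-catenin for GSK3. Its 2 brightest probe sets pointed opposite ways. On 1424827_a_at values were 11.99 and 12.30 in double mutants and 12.37, 12.43 and 12.36 in wild type (difference −0.24 ± 0.11, adjusted p = 0.222, from −0.40 to −0.087 with 1 array left out). On 1428537_at they were 11.87 and 11.84 in double mutants and 11.28, 11.18 and 11.43 in wild type, a rise of 0.56 ± 0.09 (adjusted p = 0.0232). The largest rise of any member was on 1437923_at, with 9.93 and 9.89 in double mutants and 7.39, 6.89 and 5.91 in wild type. The mutant arrays lay close together there, the wild type arrays were spread over more than 1 log2 unit, and the rise was 3.18 ± 0.47, or 9.05-fold (adjusted p = 0.0208). On 1430529_at values were 6.52 and 6.90 in double mutants and 5.90, 5.62 and 5.42 in wild type, a rise of 1.06 ± 0.20 (adjusted p = 0.0336). The dim 1451497_at stood at 4.02 and 4.31 in double mutants, against 4.60, 4.31 and 4.57 in wild type, with overlap (adjusted p = 0.206). With 1 array left out the 3 called differences ranged from 0.50 to 0.62, from 2.77 to 3.51 and from 0.87 to 1.25.

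**Figure D2:**
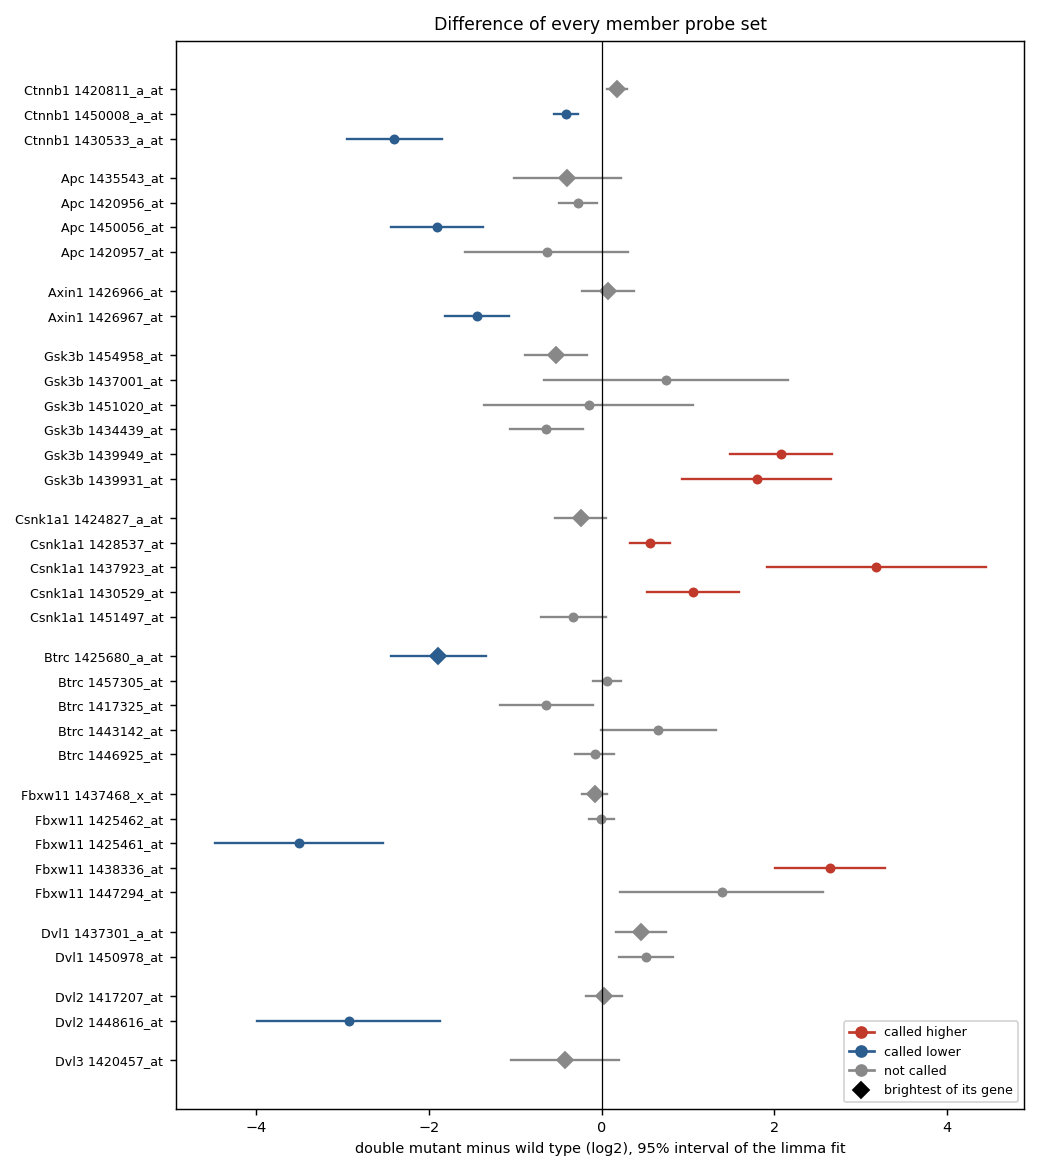
Double mutant minus wild type difference (log2, horizontal axis) of all 35 probe sets, ordered by gene. Points are limma estimates, lines their 95% intervals, diamonds the brightest probe set of a gene, and colour shows whether it was called higher, called lower or not called. Of the 10 diamonds, that of Btrc at −1.89 is the single one called, while called differences on other probe sets reach −3.50 and 3.18 (Fbxw11 and Csnk1a1).

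Btrc and Fbxw11 encode the paralogous F-box proteins of the beta-TrCP type, which bring phosphorylated beta-catenin to the SCF ubiquitin ligase. Btrc was the member called on its brightest probe set, 1425680_a_at, at 6.33 and 6.95 in double mutants, against 8.62, 8.47 and 8.51 in wild type. It fell by 1.89 ± 0.20 on the log2 scale, or 3.71-fold (adjusted p = 0.0117), with a range of −2.20 to −1.58 when 1 array was left out. On 1457305_at, Btrc stood at 7.64 and 7.51 in double mutants, against 7.51, 7.50 and 7.53 in wild type. That difference was 0.063 ± 0.06, with a 95% interval of −0.099 to 0.22 (adjusted p = 0.518). Within the mutant arrays 1457305_at gave the higher signal, and 1425680_a_at had the highest mean over 5 arrays only through its wild type values, so the count of 1 member called on its brightest probe set depends on that choice.
The dimmer Btrc probe sets were not called. On 1417325_at values were 5.29 and 5.13 in double mutants and 6.19, 5.73 and 5.62 in wild type (−0.64 ± 0.20, adjusted p = 0.106, called with equal array medians at 0.0262 and with quantile normalization at 0.0380). On 1443142_at they were 6.27 and 5.50 in double mutants and 5.30, 5.21 and 5.19 in wild type (0.65 ± 0.25, adjusted p = 0.161). Without double mutant replicate 2 that difference was 1.04 and called (adjusted p = 0.0397), and without double mutant replicate 1 it was 0.27 (adjusted p = 0.118). On 1446925_at all 5 arrays lay between 3.77 and 3.997 (adjusted p = 0.541).

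Fbxw11 gave the widest span of any member. On the brightest, 1437468_x_at, all arrays lay between 12.46 and 12.61 (difference −0.078 ± 0.05, 95% interval −0.22 to 0.067, adjusted p = 0.384). The suffix _x_at marks probes that can also match other sequences. On 1425462_at values were 10.44 and 10.55 in double mutants and 10.50 in each wild type array (−0.0030 ± 0.05, 95% interval −0.14 to 0.14, adjusted p = 0.983). On 1425461_at, tied to the same GenBank record as 1425462_at, they were 4.74 and 4.86 in double mutants and 8.72, 8.55 and 7.65 in wild type. That signal fell by 3.50 ± 0.36 (adjusted p = 0.0110), the largest fall of any member probe set, with a range of −3.83 to −3.30 when 1 array was left out. Both mutant values were below the median level of 5.41, and with 16 added to the intensity the difference was −2.92. On 1438336_at the order was the other way, with 7.28 and 6.88 in double mutants and 4.79, 4.19 and 4.32 in wild type. It rose by 2.64 ± 0.24 (adjusted p = 0.00879), and between 2.45 and 2.84 with 1 array left out, while with 16 added to the intensity, its wild type values being dim, it was 2.002. On 1447294_at values were 6.16 and 4.94 in double mutants and 4.54, 4.08 and 3.88 in wild type, and the difference of 1.39 ± 0.44 was not called (adjusted p = 0.109) except with equal array medians (adjusted p = 0.0468), with a range of 0.78 to 1.997 when 1 array was left out. Fbxw11 was the 1 member of 9 with several probe sets that was called in both directions, which also held for 455 of 9010 such genes over the whole array (5.05%).

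The Dishevelled genes encode the cytoplasmic proteins that carry the signal from Frizzled receptors. Dvl1 was above wild type in both mutant arrays on both of its probe sets, though neither was called. On 1437301_a_at values were 9.66 and 9.55 in double mutants and 9.23, 8.98 and 9.23 in wild type, a difference of 0.46 ± 0.11 (adjusted p = 0.0551). On 1450978_at they were 8.62 and 8.55 in double mutants and 7.91, 8.04 and 8.24 in wild type, a difference of 0.52 ± 0.12 (adjusted p = 0.0507). Both were called with quantile normalization (adjusted p = 0.0387 and 0.0403), with trend and robust moderation (0.0457 and 0.0447) and over probe sets above the median level (0.0349 and 0.0307), and the second also without wild type replicate 3 (0.0396). With equal array medians they were smaller, at 0.37 and 0.43, and not called (adjusted p = 0.0830 and 0.0854). With 16 added to the intensity they were not called either (0.0543 and 0.0509).
Dvl2 on 1417207_at stood at 8.68 in both double mutant arrays and at 8.57, 8.62 and 8.77 in wild type, inside the wild type range (0.030 ± 0.08, 95% interval −0.18 to 0.24, adjusted p = 0.817). On 1448616_at, of the same GenBank record, it stood at 4.25 and 3.98 in double mutants, against 7.34, 7.45 and 6.34 in wild type. This signal fell by 2.93 ± 0.39 (adjusted p = 0.0170), with a range of −3.28 to −2.72 when 1 array was left out. Its mutant values were dim, and with 16 added to the intensity the difference was −2.16. The single Dvl3 probe set, 1420457_at, was dim, at 4.61 and 5.15 in double mutants, against 5.16, 5.59 and 5.16 in wild type. Its difference of −0.42 ± 0.23 was not called (adjusted p = 0.298) and lay between −0.69 and −0.15 with 1 array left out.

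Whether probe sets of 1 gene changed unequally was tested directly, from the log2 difference between a gene's brightest probe set and each other probe set within an array, fitted over all 16752 such pairs. Of the 25 member pairs 16 were called, against 30.6% of all pairs. At least 1 pair was called in 8 of the 9 genes with more than 1 probe set, against 41.0% of all 9010 such genes. The members had more pairs per gene, 25 in 9 genes beside 16752 in 9010, and more pairs give more occasions for a call. In 6 of these pairs the other probe set fell relative to the brightest, as in 18.6% of all pairs, and in 10 it rose relative to it, as in 12.0% of all pairs. Pairs of a gene share its brightest probe set, and 4 of the 10 were those of Btrc. Its 1425680_a_at was the brightest only through its wild type values, and all 4 pairs carry its own difference of −1.89. Btrc 1457305_at, 1446925_at, 1443142_at and 1417325_at themselves differed by 0.063, −0.082, 0.65 and −0.64 and were not called. The counts of 16 and 10 thus depend on that choice. In Ctnnb1, 1420811_a_at exceeded 1430533_a_at by 4.26 and 4.54 in double mutants and by 1.66, 1.69 and 2.13 in wild type, a change of 2.58 ± 0.19 (adjusted p = 0.00208). In Fbxw11, 1437468_x_at exceeded 1425461_at by 7.71 and 7.70 in double mutants and by 3.87, 4.02 and 4.96 in wild type, a change of 3.42 ± 0.34 (adjusted p = 0.00278). In Csnk1a1, 1424827_a_at exceeded 1437923_at by 2.06 and 2.41 in double mutants and by 4.99, 5.54 and 6.44 in wild type, a change of −3.42 ± 0.43 (adjusted p = 0.00453). The groups did not overlap in any of these 3 pairs, nor in 58.8% of all pairs. Between Dvl1 1437301_a_at and 1450978_at no unequal change was called, with −0.062 ± 0.16 (95% interval −0.45 to 0.33, adjusted p = 0.798).

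Of the 5 member pairs in which the brightest and the other probe set were listed under 1 record, 3 were called, in Ctnnb1 (0.59 ± 0.10, adjusted p = 0.0115), Axin1 (1.51 ± 0.18, adjusted p = 0.00384) and Dvl2 (2.96 ± 0.41, adjusted p = 0.00597), and in each the other probe set fell relative to the brightest. Over the whole array 33.1% of 3260 such pairs were called. The pairs of Gsk3b (0.11 ± 0.20, adjusted p = 0.717) and Csnk1a1 (0.085 ± 0.15, adjusted p = 0.713) were not called. Where on a transcript each probe set lies was not known here. Of all 25 pairs 16, 17, 13 and 16 were called without double mutant replicate 2, wild type replicate 1, wild type replicate 2 and wild type replicate 3, and 9 without double mutant replicate 1. The share of all 16752 pairs called was counted in the main fit alone, with all arrays and no covariate. The members' pair counts in other fits therefore have no background beside them. With the Gapdh covariate limma called 0 of 25, with 4 at an unadjusted p under 0.05 and wider errors. The Ctnnb1 pair with 1430533_a_at then changed by 2.47 ± 0.80, beside 2.58 ± 0.19, and the Fbxw11 pair with 1438336_at by −2.46 ± 1.01, beside −2.72 ± 0.25.

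**Figure D3:**
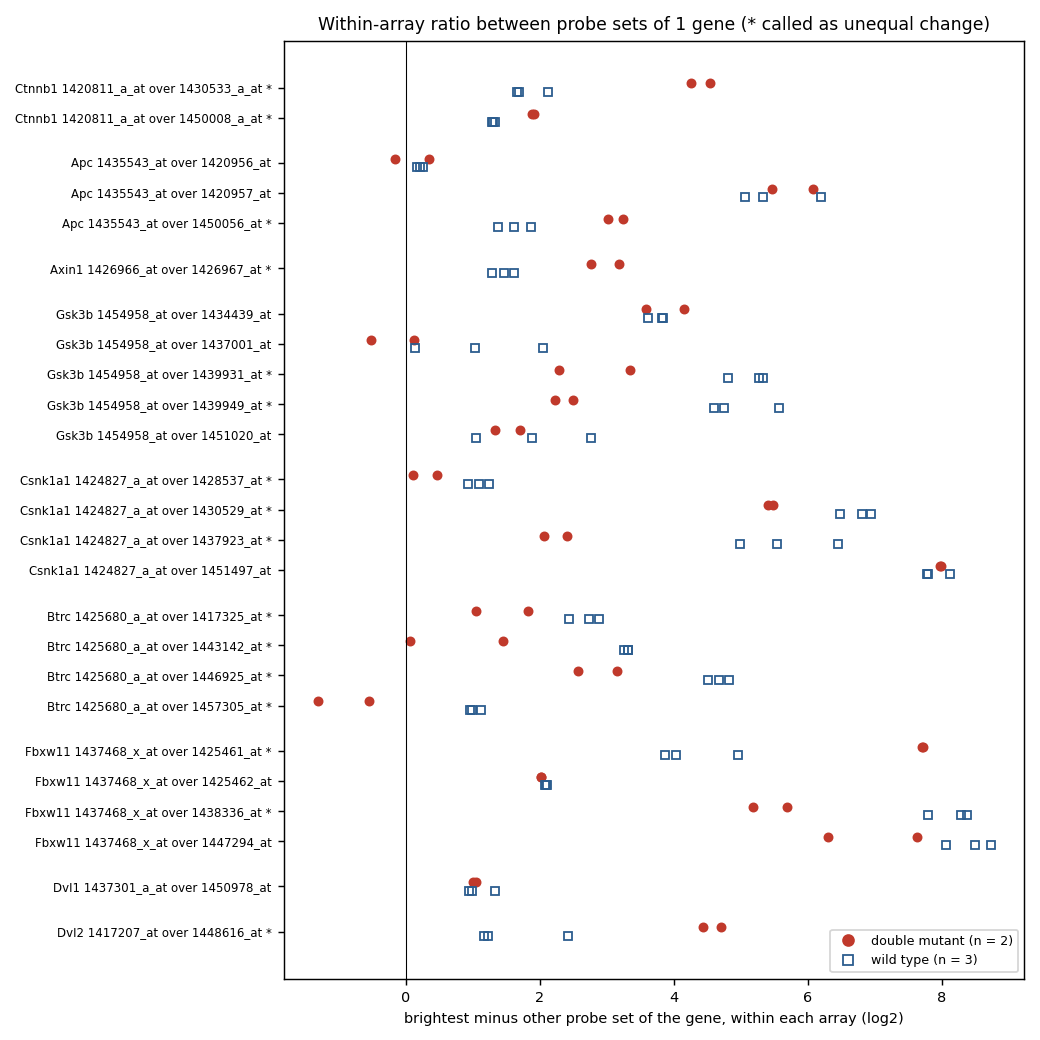
Log2 difference within each array between the brightest and each other probe set of a gene (horizontal axis), for the 25 member pairs. Filled circles are the 2 double mutant arrays, open squares the 3 wild type arrays, and a star marks the 16 pairs called as changing unequally. For Fbxw11 1425461_at the mutant arrays sit at 7.70 and 7.71, against 3.87 to 4.96 in wild type.

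How a gene is summarised from its probe sets changed the count of members called. With the mean of all probe sets of a gene in place of the brightest, 7 of 10 members were called rather than 1, 2 higher and 5 lower, against 21.5% of all genes treated in this way. Csnk1a1 (0.85 ± 0.13, adjusted p = 0.0160) and Dvl1 (0.49 ± 0.09, adjusted p = 0.0220) were then higher. Ctnnb1 (−0.88 ± 0.09, adjusted p = 0.00665), Apc (−0.80 ± 0.16, adjusted p = 0.0272), Axin1 (−0.69 ± 0.09, adjusted p = 0.0114), Btrc (−0.38 ± 0.07, adjusted p = 0.0215) and Dvl2 (−1.45 ± 0.16, adjusted p = 0.00832) were then lower. Such a mean blends probe sets that changed unequally, and for Fbxw11, with calls in both directions, it came to 0.090 ± 0.16 (adjusted p = 0.726).

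Other genes of the pathway, taken by their brightest probe set, were also called in both directions, 8 higher and 11 lower of 62, beside 6.56% and 8.14% of all genes, and 4 higher and 13 lower with equal array medians. Among partners and paralogs of the destruction complex 3 of 20 rose and 7 fell, with a median difference of −0.087 beside −0.018 over all genes. Ppp2r1a, the scaffold subunit of protein phosphatase 2A, stood at 12.66 and 12.64 in double mutants, against 13.14, 13.10 and 13.17 in wild type, a difference of −0.49 ± 0.05 (adjusted p = 0.00940), and its 4 other probe sets were called lower too. Ppp2r5c, a regulatory subunit of that phosphatase, fell by 0.71 ± 0.08 (adjusted p = 0.0132), with 3 of its 6 other probe sets called lower. Csnk1g2, a casein kinase of the gamma type, fell by 0.38 ± 0.05 (adjusted p = 0.0151).
The remaining falls, named after their values were seen, were those of the phosphatase subunits Ppp2r5b, Ppp2cb and Ppp2r5d and of Csnk1d, from −0.40 to −0.34. The rises were those of the phosphatase subunit Ppp2r5a (0.48), of Csnk1g3 (0.43) and of Rnf146 (0.41), a ubiquitin ligase that acts on Axin, and another Rnf146 probe set was called lower. The other probe set of Csnk1g3, 1429384_at, nearly as bright, differed by −0.39 (adjusted p = 0.0515). That of Ppp2r5a, 1440189_at, differed by −0.71 (adjusted p = 0.102). Neither was called. With equal array medians these 3 rises were not called (adjusted p = 0.102 for Rnf146, 0.0924 for Ppp2r5a and 0.104 for Csnk1g3). Calls on the 40 other probe sets of the list were 2 higher and 15 lower, beside 8.66% and 15.0% of all such probe sets.

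Among 12 regulators of Dishevelled 2 rose and 0 fell by the brightest probe set, beside 6.56% and 8.14% of all genes. The median difference was 0.22. Calls on the 19 other probe sets of the list were 2 higher and 1 lower (Dact3 1440031_at), beside 8.66% and 15.0% of all such probe sets. Ccdc88c, a Dishevelled-binding protein, stood at 6.58 and 6.62 in double mutants, against 5.99, 6.05 and 6.00 in wild type, a rise of 0.59 ± 0.05 (adjusted p = 0.00803). Klhl12, an adaptor of a Dishevelled ubiquitin ligase, rose by 0.42 ± 0.09 (adjusted p = 0.0453), but not with equal array medians (0.33, adjusted p = 0.126), and Dact2 differed by 0.44 ± 0.11 (adjusted p = 0.0585). Among 8 measured genes of the SCF core and of ubiquitin enzymes 1 rose and 2 fell (median −0.0018). Rbx1, the RING subunit of SCF ligases, rose by 1.73 ± 0.19 (adjusted p = 0.0124) on a probe set that was dim in wild type, at 6.52 and 6.26 in double mutants and 4.96, 4.41 and 4.60 in wild type. The ubiquitin-conjugating enzyme genes Ube2d3 (−0.65 ± 0.08, adjusted p = 0.0154) and Ube2d1 (−1.55 ± 0.23, adjusted p = 0.0211) fell by their brightest probe set. Of the 7 Ube2d3 probe sets 2 others were called lower. Its next brightest, 1450858_a_at and 1423113_a_at, differed by −0.113 and −0.105 and were not called (adjusted p = 0.252 and 0.379).

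Among 8 partners of beta-catenin at cell junctions 1 rose and 1 fell, with a median of −0.046. Cdh1, the epithelial cadherin, stood at 8.85 and 9.50 in double mutants, against 8.05, 8.15 and 8.19 in wild type (1.05 ± 0.21, adjusted p = 0.0399), and it also belongs to the ectoderm markers that were higher. Ctnnd1, the p120 catenin, fell by 0.54 ± 0.07 (adjusted p = 0.0178), and Cdh2, a cadherin of mesenchyme, differed by 0.26 ± 0.11 (adjusted p = 0.213). The other Cdh2 probe set, 1449244_at, went the opposite way, by −0.57 ± 0.13, and was not called either (adjusted p = 0.0504). The direction for Cdh2 thus depends on the probe set. Of 12 nuclear partners 1 rose and 1 fell, with a median of 0.23. The co-repressor gene Tle3 rose by 0.60 ± 0.09 (adjusted p = 0.0232), Bcl9, a co-activator that binds beta-catenin, fell by 1.06 ± 0.15 (adjusted p = 0.0194), and Tle1 differed by 0.56 ± 0.16 (adjusted p = 0.0892). Other probe sets went the opposite way, with Bcl9 1455565_at called higher and 2 dimmer Tle3 probe sets called lower, while another Tle3 probe set was called higher. Tcf7l2 differed by 0.26 on its brightest probe set (adjusted p = 0.450), but its 3 other probe sets were called lower. Tle4 1425650_at was called lower too (−2.41, adjusted p = 0.00585). Calls on the 15 other probe sets of the list were 2 higher and 6 lower, beside 8.66% and 15.0% of all such probe sets. Of the co-receptors Lrp6 (−0.37 ± 0.10, adjusted p = 0.0753) and Lrp5 (−0.25 ± 0.08, adjusted p = 0.107) 0 of 2 were called, and both were at an unadjusted p under 0.05.
The number of list calls moved with that over the whole array. Without double mutant replicate 1 or wild type replicate 2 limma called 0 of 62, as it called 0 of all probe sets, with 25 and 23 at an unadjusted p under 0.05, and without double mutant replicate 2, wild type replicate 1 or wild type replicate 3 it called 8, 5 and 11. The differences moved less, from 0.56 to 0.61 for Ccdc88c and from −0.51 to −0.48 for Ppp2r1a, with adjusted p up to 0.0595 and 0.0597.

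**Figure D4:**
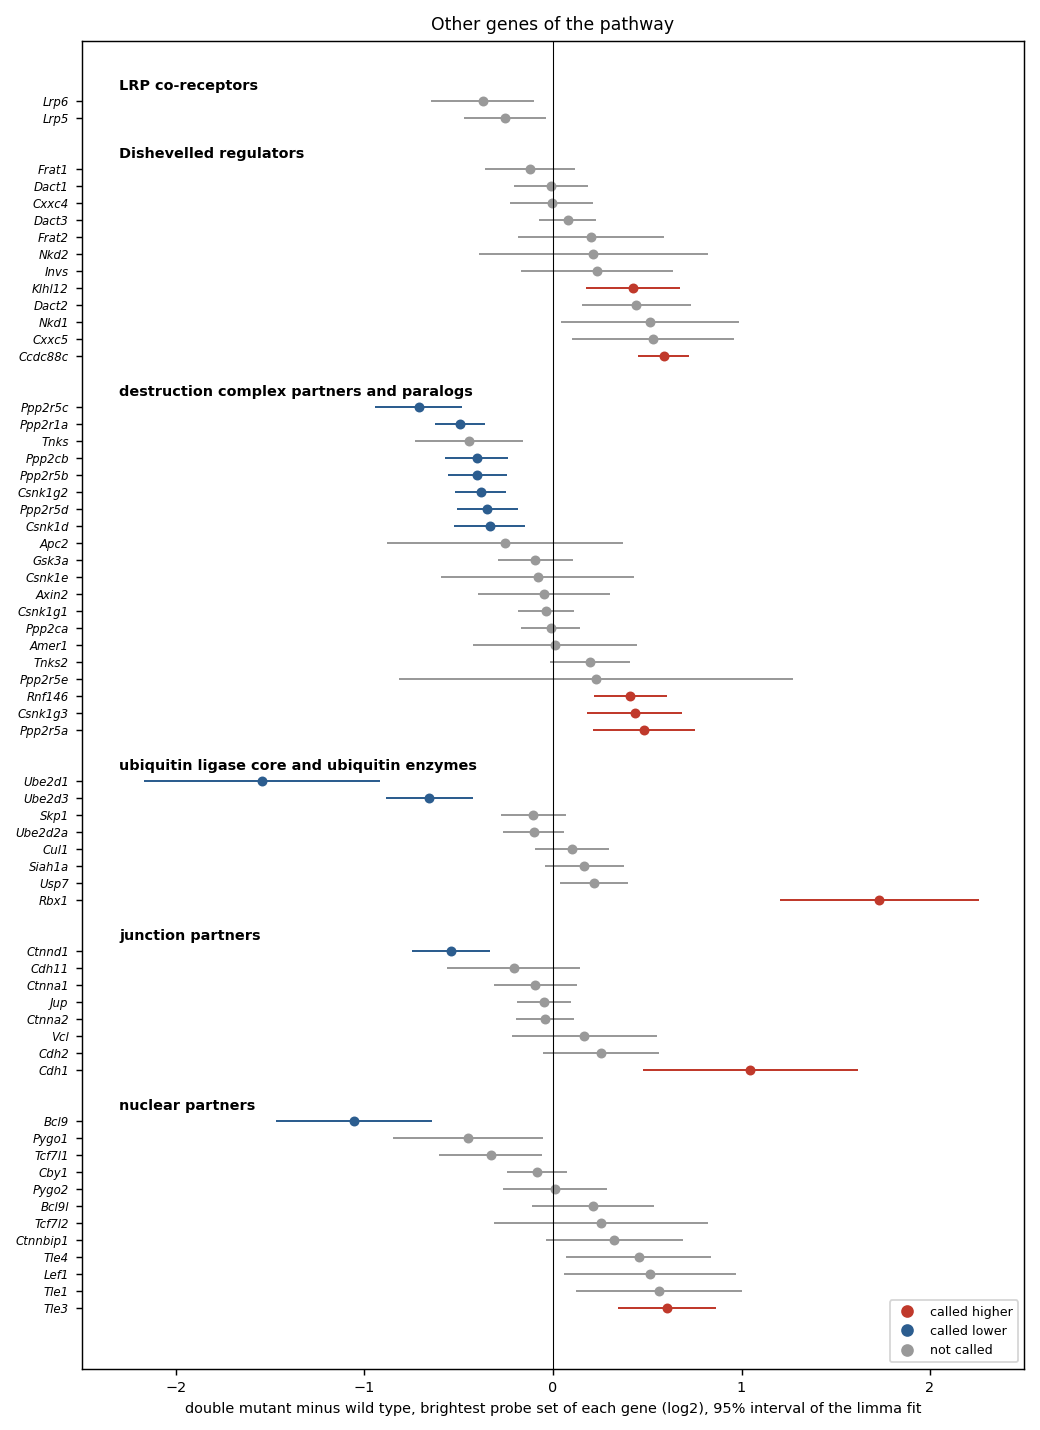
Double mutant minus wild type difference (log2, horizontal axis) of the brightest probe set of 62 other pathway genes, grouped by list. Points are limma estimates and lines their 95% intervals, with colour for called higher, called lower or not called. The 8 genes called higher reach 1.73 (Rbx1) and the 11 called lower reach −1.55 (Ube2d1).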

How the data were processed

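Total RNA of 5 forelimb samples had been labelled with biotin in 2 rounds of amplification, per the labels' protocols. The authors' deposited values were linear intensities, with 1 value for every probe set on each array. RMA and limma are listed, per the submitters' processing notes, without saying what each did or in which version. How background, normalization and summarization were set was not given in the sources used here. From these values log2 was taken with no further normalization. The 64 manufacturer controls among 45101 probe sets were dropped. Probe sets were named by the platform annotation where it gave 1 symbol (34945 of 45037, with 932 carrying several and 9160 none), and all 10 members matched RefSeq by gene identifier.

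Groups were fitted with limma 3.58.1 in R 4.3.3, with 1 mean per genotype and empirical Bayes moderation without trend (degrees of freedom 3 residual, 1.29 prior). Two-sided p-values were adjusted by Benjamini-Hochberg over all probe sets, all pairs or, for means of probe sets, all genes, and a call is an adjusted p under 0.05. Errors are SEs of the fit. The brightest probe set is that with the highest mean over the 5 arrays. Genotypes were compared within a probe set, and probe sets were set against each other only to choose the brightest and to form log ratios within an array. The arrays' number limits the precision, and how replicates were raised was not given beyond the statement that embryos were not pooled, so p-values measure the spread between these arrays. Named were all member probe sets, up to 3 genes of each list with the smallest p, and further list genes where the text says so or a count needs them. Members and lists were chosen with earlier results of these data known. Alternatives tried were equal array medians, quantile normalization, an added offset of 16, probe sets above the median level, trend and robust moderation, each array left out, a replicate block, a Gapdh 3' minus 5' covariate and the mean of a gene's probe sets.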

Additional observations from a re-analysis of the deposited data

How the results depend on the processing

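With 1 array left out, limma called 0 to 5108 of all probe sets (8206 with all arrays), 0 to 13 member probe sets (13), 0 to 1 members by the brightest probe set (1), 9 to 17 member pairs (16) and 0 to 11 list genes (19). With the replicate block, which the labels do not support as a pairing, the counts were 2351, 7, 0, 18 and 1, with 4 members at an unadjusted p under 0.05 by the brightest probe set, and all 16 pair calls were kept. The correlation of deviations between same-numbered arrays was 0.089 and 0.12. With the Gapdh covariate all 5 counts were 0, with 4259, 7, 1, 4 and 6 at an unadjusted p under 0.05. Members called by the brightest probe set numbered 2 with equal medians, with quantile normalization and with 16 added. They numbered 3 over probe sets above the median level and with trend and robust moderation, and 7 by the mean of probe sets. Over all 45037 probe sets, calls numbered 9625 with equal medians, 9045 with quantile normalization and 8143 with 16 added. With trend and robust moderation they numbered 8703, and above the median level 7573 of 22518. By the mean of probe sets 21.5% of all genes were called. The share of all genes called by the brightest probe set was counted in the main fit alone.

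Of the called member probe sets, 0 reversed under any alternative. Values of uncalled ones that changed sign were, with equal medians, −0.061 (Dvl2 1417207_at), −0.021 (Axin1 1426966_at) and −0.028 (Btrc 1457305_at), and with quantile normalization 0.0042 (Fbxw11 1425462_at). With the Gapdh covariate they were −0.24, −0.38, −0.23 and 0.20 for the same 4, and 0.59 (Dvl3), 0.31 (Apc 1420957_at), 0.37 and 0.28 (Csnk1a1 1424827_a_at and 1451497_at), 0.098 and −0.018 (Fbxw11 1437468_x_at and 1447294_at), −0.66 (Btrc 1443142_at), −0.086 (Dvl1 1450978_at) and 1.43 (Gsk3b 1451020_at). With 1 array left out, ranges crossing 0 were −0.012 to 0.088 (Dvl2 1417207_at), −0.055 to 0.049 (Fbxw11 1425462_at), −0.014 to 0.15 (Axin1 1426966_at), −0.0063 to 0.13 (Btrc 1457305_at) and −0.48 to 0.22 (Gsk3b 1451020_at).

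Among pairs, 2 called ones reversed with the Gapdh covariate, Csnk1a1 1428537_at (0.068) and Btrc 1443142_at (0.11). Uncalled pairs that changed sign there were Apc 1420957_at (−2.09), Fbxw11 1447294_at (0.12) and Dvl1 1450978_at (0.33). With 16 added, Apc 1420957_at came to −0.033 and Csnk1a1 1451497_at to −0.060, and with the replicate block Gsk3b 1451020_at to 0.056. With 1 array left out, pair ranges crossing 0 were −0.37 to 0.13 (Apc 1420956_at), −0.065 to 0.57 (Apc 1420957_at), −0.17 to 0.40 (Gsk3b 1434439_at), −0.14 to 0.058 (Dvl1 1450978_at) and −0.80 to 0.056 (Gsk3b 1451020_at). The cause of these moves was not tested, except that leaving out an array lowers the sample number. Dim probe sets limit what the arrays resolve.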
